A study of Mus musculus with 6 samples.

Results

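The simple and basal keratins are intermediate filament proteins of epithelial cells, and 10 of their genes were followed by symbol in the 24129 gene names of the table, namely Krt7, Krt8, Krt18, Krt19 and Krt20 of simple epithelia and Krt5, Krt14, Krt16, Krt17 and Krt6a of the basal layer and its wound response. RNA sequencing of T1 and T2 cells was compared, with 3 replicates of each. Both populations came from 4T1GFP, the BALB/c mouse mammary carcinoma line 4T1 with a stable green fluorescent protein tag, which had been injected into mice to form a mammary tumor. Tumor cells that overgrew a fibroblast culture sorted from this tumor were sorted again by GFP. T1 cells (4T1A) were the fraction with low GFP, which grew attached with an epithelial shape and was labelled aggressive in vivo. T2 cells (4T1NA) were the fraction with high GFP, which was round, held loosely to the dish and was labelled less aggressive. Both were grown in DMEM/F-12 with 10% FBS, and T2 cells were passaged without trypsin. The study states in general that biological replicates were used, but the sources used here give no time in culture and do not say whether the sequenced replicates of a population were separate cultures, so p-values measure the spread between these samples, which may be technical.

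Keratins are obligate heteropolymers in which a type I chain pairs with a type II chain. Krt8 (type II) and Krt18 (type I) are the founding pair of simple epithelia, joined in ducts by Krt7 (type II) and Krt19 (type I), while Krt20 (type I) belongs to gut and bladder lining. In the mammary gland, luminal cells are known for the first 4 and basal, myoepithelial cells for Krt5 (type II) and Krt14 (type I). Krt6a (type II), Krt16 and Krt17 (both type I) are known for their induction in wounded and hyperproliferative epidermis. The keratin genes stand in one cluster for each type, the type II cluster on chromosome 15 and the type I cluster on chromosome 11, except that Krt18 lies at the end of the type II cluster beside Krt8. Of the 10 genes compared here, 4 encode type II and 6 encode type I chains.

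The 10 keratins fell into 3 patterns. Krt8 and Krt18 were high in both populations, Krt7, Krt19, Krt14, Krt17 and Krt16 were counted almost only in T1 cells, and Krt5, Krt6a and Krt20 had 0 reads in all 6 libraries. The patterns crossed the simple and basal grouping, since 2 of the 5 simple and 3 of the 5 basal keratins were higher in T1 cells, and each group held a gene with no read. A normalized count is a read count divided by the size factor of its library. Libraries held 18133227 to 20839686 reads on genes. No read at all among 117330063 reads allows at most the level that 3 reads over the 6 libraries would give, by counting error only.

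In all, 11514 genes averaged 10 or more normalized counts and were compared. T1 cells had the higher value for 25.1% and the lower value for 24.4% of these at an adjusted p under 0.01 (limma on log2(normalized count + 1), Benjamini-Hochberg adjustment). With a log2 fold change beyond 2 as a further filter, 4.17% were higher and 4.2% lower. Against these shares, 5 of the 10 keratins were higher, all 5 past both filters, 0 were lower, 2 were compared and not called (Krt8 and Krt18) and 3 could not be compared for want of reads. Krt19, Krt14, Krt16 and Krt17 reached the mean of 10 through T1 cells alone, so a gene like them could enter only by being higher there. The median log2 fold change of all genes compared was -0.01. RNA was taken from whole cultures, in which fewer cells of a type and less RNA per cell cannot be told apart.

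**Figure D1:**
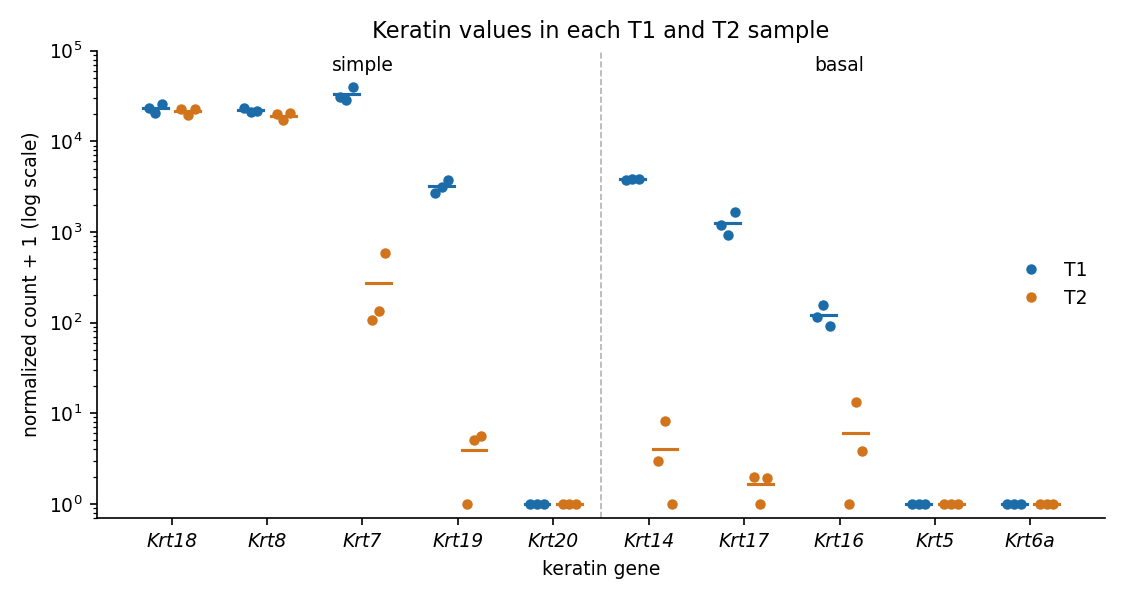
Normalized count + 1 (log axis) of each of the 10 keratins in each of the 3 T1 and 3 T2 samples, with 1 point per sample and a bar at the group mean, simple keratins left and basal keratins right of the dashed line. Krt18 and Krt8 lie together in both populations, Krt7, Krt19, Krt14, Krt17 and Krt16 lie far apart, and Krt20, Krt5 and Krt6a sit at 0 reads.

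Krt18 (chromosome 15, 102028180 to 102032027, plus strand, mm10) and Krt8 (chromosome 15, 101996698 to 102004482, minus strand) are neighbours, 23697 bases apart, while Krt7 (chromosome 15, 101411043 to 101430313, plus strand) lies at the far end of the same cluster. Their upstream stretches are shown because the first pair had like values in T1 and T2 cells and Krt7 did not. Each runs 5′ to 3′ along the gene's strand, from the RefSeq promoter table (build GRCm38.p6, the same assembly as mm10). Each ends at the last base before the first exon of the annotated transcript matched to RefSeq. For Krt8 and Krt18 the RefSeq start lies 140 and 36 bases inside the gene as GENCODE draws it. The bases nearest that start are therefore neither shown nor searched.
Krt18, chr15:102027966-102028179, plus strand: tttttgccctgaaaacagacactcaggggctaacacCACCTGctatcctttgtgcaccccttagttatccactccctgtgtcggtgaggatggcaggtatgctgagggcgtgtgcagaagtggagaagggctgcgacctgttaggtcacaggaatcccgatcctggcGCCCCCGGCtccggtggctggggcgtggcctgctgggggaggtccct
Krt8, chr15:102004483-102004592, minus strand: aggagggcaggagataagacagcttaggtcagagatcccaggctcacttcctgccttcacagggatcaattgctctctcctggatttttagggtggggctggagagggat
Krt7, chr15:101412153-101412401, plus strand: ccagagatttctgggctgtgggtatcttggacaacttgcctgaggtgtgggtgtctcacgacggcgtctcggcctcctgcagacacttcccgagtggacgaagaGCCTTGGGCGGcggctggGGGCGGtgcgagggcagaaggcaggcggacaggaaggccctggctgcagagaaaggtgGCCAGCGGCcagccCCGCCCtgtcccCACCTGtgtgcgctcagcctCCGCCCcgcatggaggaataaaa
Capitals mark matches on either strand to 5 words, namely TATAAA of the TATA box, GGGCGG of the type bound by Sp1, TGANTCA of AP-1 factors, the E-box CAGGTG and GCCNNNGGC of AP-2 factors. Overlapping matches of GCCNNNGGC and GGGCGG merge in the first capital run of Krt7. The 249 bases of Krt7 held 4 matches of GGGCGG, a word found in 32.6% of all 32817 promoter windows of that length, 2 of GCCNNNGGC (13.6%) and 1 of CAGGTG (17.2%). The 214 bases of Krt18 held 1 match of CAGGTG (15.2%) and 1 of GCCNNNGGC (11.4%). The 110 bases of Krt8 held none of the 5 words, but the 140 bases before its RefSeq start were not searched. Such matches describe letters in a window and not binding. Other annotated transcripts of Krt7 start further upstream, so that its stretch lies within the gene as GENCODE draws it. The RefSeq table matched 6 of the 10 genes.

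Krt18, the type I chain of the simple pair, had 23407, 20584 and 25833 normalized counts in T1 replicates 1 to 3 and 22756, 19625 and 22593 in T2 replicates 1 to 3. The populations overlapped, and the means of 23275 ± 2627 and 21658 ± 1762 (SD, n = 3 each) differed by a log2 fold change of 0.10 ± 0.10 (SE). The 95% interval of the difference ran from -0.12 to 0.32 (adjusted p = 0.394, limma with Benjamini-Hochberg adjustment). Krt8, its type II partner, had 23297, 21191 and 21712 in T1 cells and 19904, 17357 and 20326 in T2 cells. All T1 values lay above all T2 values, but the step between them was small. The means were 22067 ± 1097 and 19195 ± 1606, and the log2 fold change of 0.20 ± 0.08 (SE), with a 95% interval from 0.02 to 0.39, missed the threshold of 0.01 (adjusted p = 0.0534, limma with Benjamini-Hochberg adjustment). Across the alternative fits its log2 fold change lay between 0.13 and 0.25 and its adjusted p between 0.0442 and 0.197 (limma, edgeR and DESeq2).

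The ratio of Krt8 to Krt18 normalized counts, not scaled to length, averaged 0.955 ± 0.101 in T1 and 0.886 ± 0.0126 in T2 replicates (SD, n = 3 each). The T1 ratios of 0.995, 1.03 and 0.840 spanned the T2 ratios of 0.875, 0.884 and 0.900, so the balance of the pair did not differ beyond the spread of T1 cells. On its other side Krt18 borders Eif4b, a translation initiation factor gene 41745 bases away, which was higher in T1 cells by a log2 fold change of 0.43 ± 0.07 (SE, adjusted p = 4.4e-04, limma with Benjamini-Hochberg adjustment). The coding neighbour of Krt8 away from Krt18, Krt78, had 1 read in all 6 libraries.

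Krt7, the type II keratin of ductal epithelium, had 30485, 28568 and 40019 normalized counts in T1 cells and 105, 134 and 583 in T2 cells. The lowest T1 sample stood far above the highest T2 sample, and T2 replicate 3 was several times higher than the other T2 replicates. Its means were 33024 ± 6133 and 274 ± 268 (SD, n = 3 each), a ratio of 120.6, with a log2 fold change of 7.33 ± 0.50 (SE, adjusted p = 8.0e-07, limma with Benjamini-Hochberg adjustment). Without T2 replicate 3 the log2 fold change was 8.09. In T1 cells Krt7 had 1.50 ± 0.298 times the normalized counts of Krt8, and in T2 cells 0.0139 ± 0.0129 times (SD, n = 3 each). The T2 libraries held 107, 131 and 628 reads of Krt7, more than of any other keratin called among the 10. The gene overlaps the annotated gene Gm671 on the other strand, and Krt8 overlaps Gm36026. Neither partner was among the gene names of the table. The kit did not mark strand, so reads of such partners cannot be told apart.

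Krt19 (chromosome 11, 100140810 to 100148665, minus strand), the smallest keratin chain and a luminal type I partner, had 2682, 3095 and 3753 normalized counts in T1 cells. T2 replicates held 0, 4 and 5 reads of it, or 0, 4.10 and 4.64 normalized counts, so nearly all Krt19 reads were in T1 libraries. Its log2 fold change was 10.01 ± 0.54 (SE, adjusted p = 1.6e-07, limma with Benjamini-Hochberg adjustment), and 9.20 without T2 replicate 1, the library with 0 reads. No stretch of 50 bases of its transcripts was found in another gene, so these counts share no such stretch with a paralog. Krt20 (chromosome 11, 99428403 to 99438150, minus strand), also without shared stretches, had 0 reads in each library. Its coding neighbours were Krt12, the cornea keratin, with 0 reads, and Krt23, with 0 reads in T1 and 1, 2 and 10 reads in T2 replicates 1 to 3, below the filter.

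Krt14 (chromosome 11, 100203162 to 100207548, minus strand), the type I keratin of basal and myoepithelial cells, had 3707, 3833 and 3845 normalized counts in T1 cells. T2 values were 1.96, 7.17 and 0. Krt14 had the smallest relative spread among T1 samples of the 7 keratins compared, with a coefficient of variation of 2.03%. Its log2 fold change was 10.36 ± 0.57 (SE, adjusted p = 1.9e-07, limma with Benjamini-Hochberg adjustment), and it moved to 11.11 without T2 replicate 2 and 9.59 without T2 replicate 3. Its usual type II partner, Krt5 (chromosome 15, 101707070 to 101712898, minus strand), had 0 reads in each of the 6 libraries. So T1 cells held Krt14 RNA with no read of Krt5, and among the 10 keratins the type II genes counted beside it were Krt8 and Krt7.

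Krt17 (chromosome 11, 100256217 to 100261029, minus strand), a type I keratin of injured epidermis and skin appendages, had 1200, 925 and 1652 normalized counts in T1 cells. T2 replicates held 1, 0 and 1 reads. The ratio of the means was 1981, with a 95% counting interval from 548 to 16362 that covers counting error only, and the log2 fold change was 9.61 ± 0.33 (SE, adjusted p = 7.5e-09, limma with Benjamini-Hochberg adjustment). Krt16 (chromosome 11, 100246091 to 100248902, minus strand), a type I keratin that in wounded epidermis pairs with Krt6 chains, was the lowest of the 5 members called. It had 115, 155 and 91.7 normalized counts in T1 cells and 0, 12.3 and 2.78 in T2 cells, where T2 replicate 2 held 12 reads. The groups did not overlap, and the log2 fold change was 5.01 ± 0.74 (SE, adjusted p = 1.9e-04, limma with Benjamini-Hochberg adjustment), 4.07 without T2 replicate 1 and 5.94 without T2 replicate 2. Krt6a (chromosome 15, 101689910 to 101694307, minus strand) had 0 reads in each library, as did its near copy Krt6b.

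**Figure D2:**
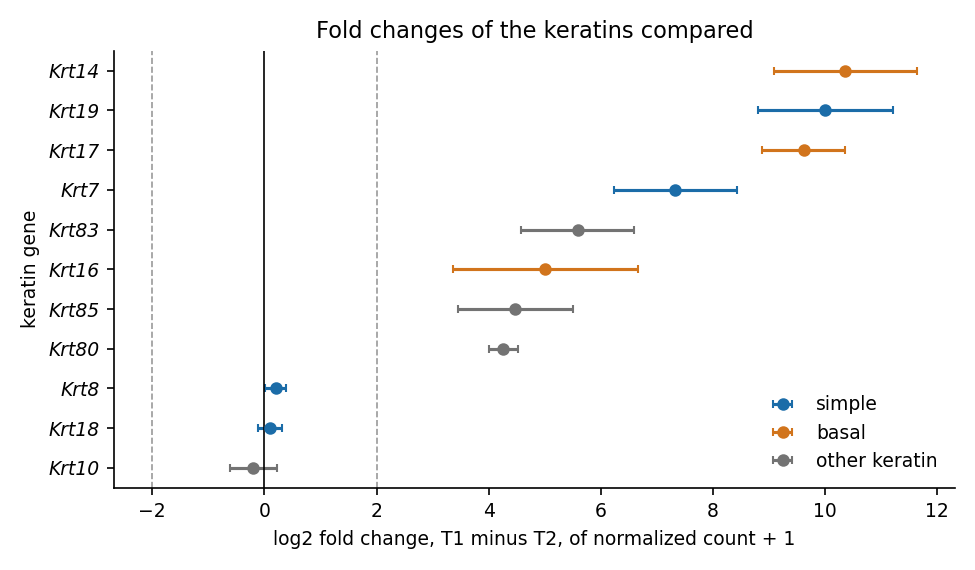
Log2 fold change, T1 minus T2, on the log2(normalized count + 1) scale for the 11 keratin genes compared, with 95% intervals as bars, blue for simple, orange for basal and grey for other keratins, and dashed lines at -2 and 2. Krt14, Krt19 and Krt17 lie near 10, Krt7 at 7.33, and Krt8, Krt18 and Krt10 lie near 0.

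The basal type I keratins resemble each other in sequence, and shared letters can bear on which gene a read is counted for. The longest run of identical letters between Krt14 and Krt16 is shown.
Krt14 and Krt16, chr11:100207017-100207150 in Krt14, minus strand, GRCm38: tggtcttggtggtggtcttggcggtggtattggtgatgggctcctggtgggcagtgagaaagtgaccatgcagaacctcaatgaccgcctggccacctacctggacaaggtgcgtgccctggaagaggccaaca
The run of 134 bases lies in coding sequence within 1 exon of Krt14, and all of its letters are shared, so none is in capitals. Of all stretches of 50 bases in the transcripts of Krt16, 37.6% also occur in another gene, mainly Gm11597 and Krt14, against 13.9% for Krt14 and 3.99% for Krt17. The share was 26.9% for Krt8, all of it with the pseudogene Krt8-ps, 8.52% for Krt5, 45.7% for Krt6a, 0.72% for Krt18 and 0.296% for Krt7. By this measure alone, Krt16 and Krt8 counts may be less certain than those of Krt18, Krt7, Krt19 and Krt17. The reads were paired and, before trimming, longer than the 134 bases of the run shown, so an untrimmed read would reach past it. Longer runs were shared by Krt16 with Gm11597 (409 bases) and by Krt8 with Krt8-ps (299 bases). Neither Gm11597 nor Krt8-ps was among the gene names of the table. The effect of shared stretches on the counts was not tested. Krt14 had many more reads than Krt16 in T1 cells (3503, 4122 and 3940 reads against 109, 167 and 94), whereas in T2 replicate 2 Krt16 held 12 reads and Krt14 held 7.

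To compare levels between keratins, normalized counts were divided by the length of all annotated exons of each gene. Per kilobase, the order in T1 cells was Krt18 (16197 ± 1828), Krt8 (11270 ± 560), Krt7 (4685 ± 870), Krt14 (2159 ± 43.8), Krt19 (1712 ± 291), Krt17 (812 ± 237) and Krt16 (77.2 ± 20.5), each in normalized counts per kilobase (mean ± SD, n = 3). No neighbours in this order overlapped between samples, and the closest were Krt14 and Krt19, with 2108 to 2187 against 1446 to 2023 per kilobase. In T2 cells Krt18 (15072 ± 1226) and Krt8 (9804 ± 820) were followed by Krt7 at 38.9 ± 38.0 per kilobase. All others had under 8 normalized counts per kilobase in every T2 sample, a range in which Krt16, Krt14, Krt19 and Krt17 overlapped.

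Length bears on these levels. With the length of the longest transcript in place of all annotated exons, Krt7 stayed between Krt8 and Krt14 in T1 cells, at 8066 ± 1498 per kilobase (SD, n = 3). Its exons span 7049 bases and its longest transcript 4094. With that length Krt14 (2183 to 2265 per kilobase) and Krt19 (1702 to 2381) overlapped. As a share of the per-kilobase sum over the 10 keratins, Krt7 took 12.6 ± 1.34% in T1 cells with all annotated exons and 19.7 ± 1.90% with the longest transcript (SD, n = 3). With all annotated exons, Krt18 took 43.8 ± 1.23% and Krt8 30.7 ± 2.59% of the sum in T1 cells, against 60.5 ± 0.422% and 39.3 ± 0.284% in T2 cells. The keratin sum of T2 cells was thus almost wholly this pair, while in T1 cells the pair shared it with 5 further chains.

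**Figure D3:**
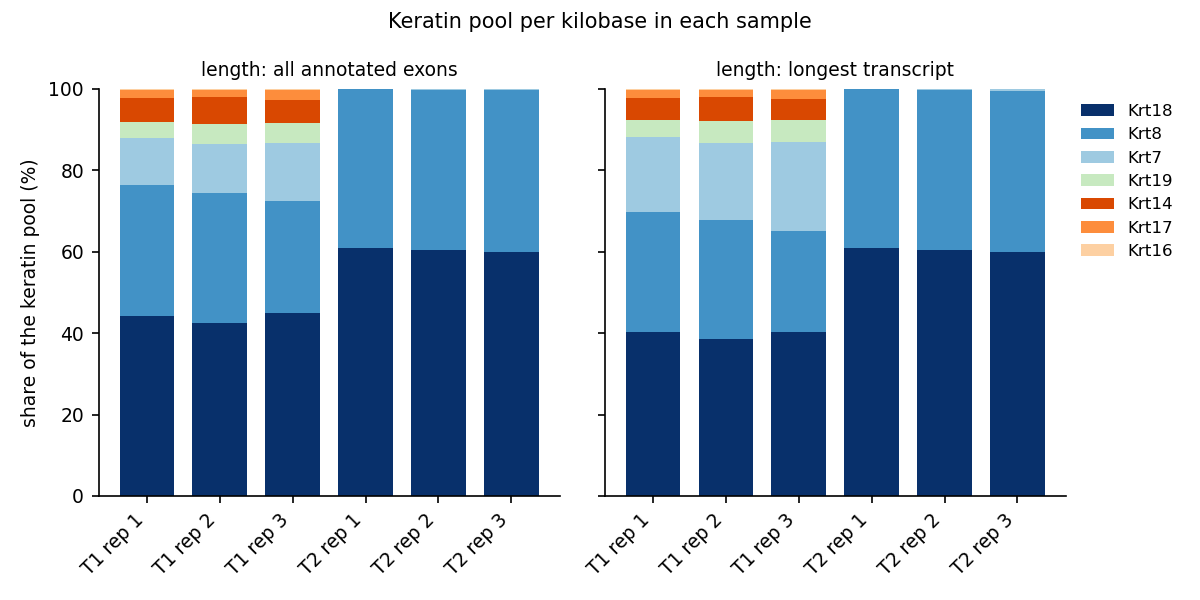
Share of each keratin (%) in the per-kilobase sum over the 10 keratins, 1 stacked bar per sample, with lengths of all annotated exons (left) or of the longest transcript (right). T2 bars hold almost only Krt18 and Krt8, and T1 bars also hold Krt7, Krt19, Krt14 and Krt17, with a larger Krt7 part at right.

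The basal keratins together took 8.01, 8.52 and 8.26% of the per-kilobase sum in T1 cells and 0.00671, 0.0529 and 0.00908% in T2 cells. The difference of the means was 8.24 percentage points (exact two-sided permutation test, p = 0.1, the smallest p that 3 samples against 3 can give). The type II to type I ratio of the per-kilobase sums averaged 0.764 ± 0.0387 in T1 and 0.653 ± 0.0115 in T2 replicates (SD, n = 3 each). All T1 ratios were higher, by 0.226 on the log2 scale of the ratio (exact two-sided permutation test, p = 0.1, the smallest possible). This size rests on the length of Krt7, as the difference was 0.472 with longest transcripts and 0.955 with no length scaling. All 10 keratins took 0.442, 0.404 and 0.503% of the normalized counts of T1 libraries and 0.223, 0.194 and 0.231% of those of T2 libraries, a difference of 0.234 percentage points (exact two-sided permutation test, p = 0.1, the smallest possible). Krt8 and Krt18 made up 0.235 ± 0.0171% of T1 and 0.214 ± 0.0188% of T2 libraries, and the other members 0.215 ± 0.0363% and 0.00151 ± 0.00142% (SD, n = 3 each). The populations overlapped in the share of the pair and not in the share of the other members.

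Beyond these members, 42 of 44 other listed keratin genes were in the table. Of them 28 had no read, 10 had reads but stayed below the filter, and 4 were compared, of which 3 were higher in T1 cells, all past both filters, and 0 lower, where 25.1% of all genes compared were higher and 4.17% past both filters. Of these 3, Krt83 and Krt85 reached the filter through T1 cells alone and could enter only by being higher there. Krt80, a type II keratin of differentiating epithelia that neighbours Krt7, had 2813, 2844 and 3492 normalized counts in T1 cells and 162, 145 and 166 in T2 cells. Its log2 fold change was 4.26 ± 0.11 (SE, adjusted p = 2.0e-09, limma with Benjamini-Hochberg adjustment). The hair keratins Krt83 and Krt85 were low, with 80.4, 63.2 and 40.0 and with 26.5, 17.7 and 20.5 normalized counts in T1 cells. T2 libraries held 1 read of Krt83 and 0 of Krt85, which gives at least 22.0-fold higher Krt85 in T1 cells against 3 reads over the T2 group. Krt85 was not matched by symbol in the annotation, and it fell below the filter when any T1 replicate was left out. Krt10, a keratin of suprabasal epidermis, had 132 ± 20.0 normalized counts in T1 and 151 ± 25.3 in T2 cells (SD, n = 3 each), with overlapping samples (log2 fold change -0.20 ± 0.19 SE, adjusted p = 0.377, limma with Benjamini-Hochberg adjustment).

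Positions were taken for keratin genes matched by symbol in the annotation, which leaves out Krt85. Of these, the keratin cluster of chromosome 15 had 24 genes in the table, of which 16 had no read and 5 were compared. The cluster of chromosome 11 had 27, of which 15 had no read and 5 were compared. On chromosome 15 the counted genes lay at the ends, with Krt80 and Krt7 at one end and Krt8 and Krt18 at the other, and of the annotated genes between them Krt83 alone reached the filter. On chromosome 11, Krt19, Krt14, Krt16 and Krt17 lay near one end with Krt9, which had no read, among them, and Krt10 lay apart. Krt42, next to Krt17, had 14 reads in T1 and 0 in T2 libraries, below the filter.

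**Figure D4:**
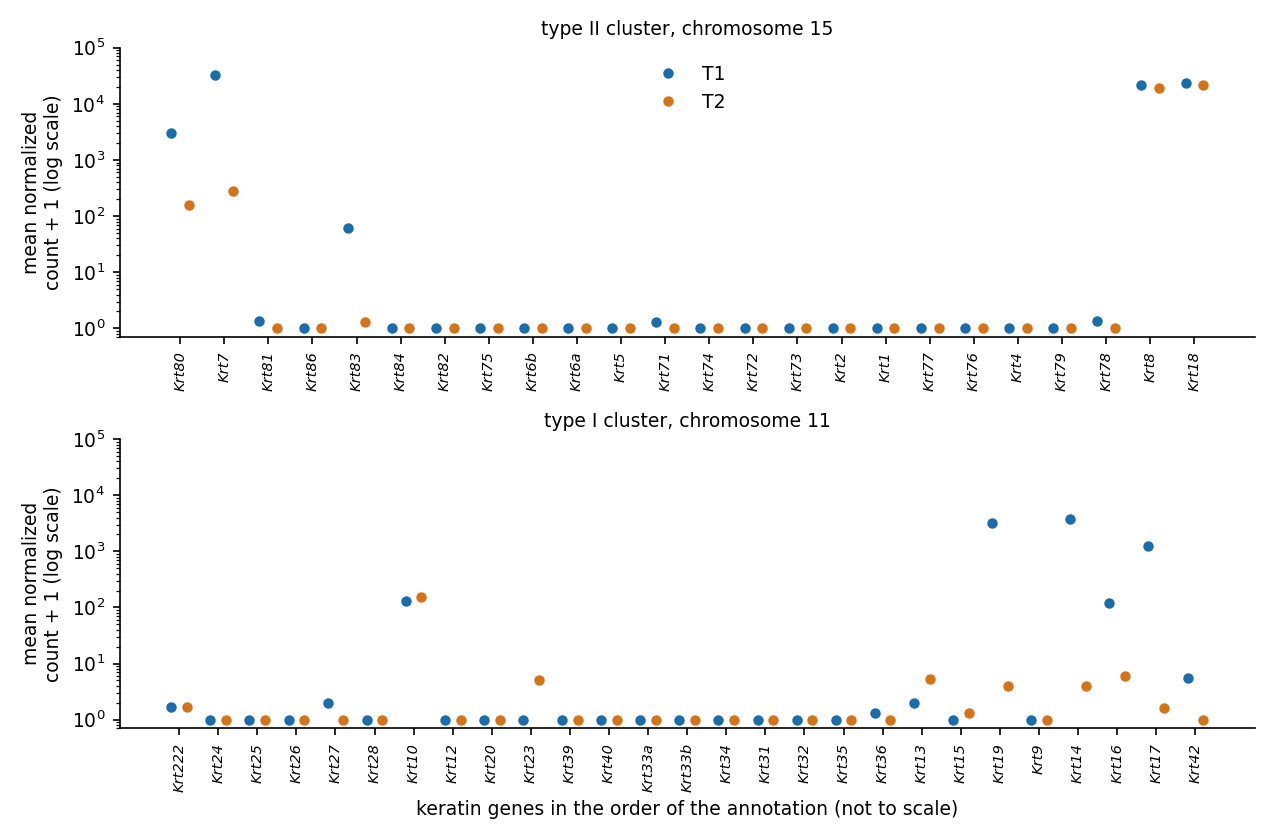
Mean normalized count + 1 (log axis) in T1 and T2 cells of the keratin genes of the table that were matched in the annotation, without Krt85. Genes stand in annotation order and not to scale, for the cluster on chromosome 15 (top, 24 genes, with the type I gene Krt18 at its end) and that on chromosome 11 (bottom, 27 genes). Counted genes lie at both ends of the first cluster and, apart from Krt10, near one end of the second.

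Keratin filaments end in desmosomes and hemidesmosomes, and genes of these anchors and of other linkers did not share one direction. Of 16 linker genes, 15 were compared, 7 were higher and 5 lower in T1 cells, beside 25.1% and 24.4% of all genes compared. Dsp entered through T1 cells alone and Col17a1 through T2 cells alone. The list's median log2 fold change was 0.00, beside -0.01 over all genes. Dsp, desmoplakin, which binds keratins to desmosomes, had 4336, 3852 and 4648 normalized counts in T1 cells, and the T2 libraries held 4, 1 and 3 reads (log2 fold change 10.31 ± 0.29 SE, adjusted p = 2.4e-09, limma with Benjamini-Hochberg adjustment). Pkp1, a desmosomal plaque protein, was higher by a log2 fold change of 3.78 ± 0.23 (SE). The hemidesmosome genes Col17a1, Itga6 and Plec, the last encoding plectin, which links keratins to integrins, were lower in T1 cells. Their log2 fold changes were -4.05 ± 0.35, -1.58 ± 0.08 and -1.36 ± 0.11 (SE), and Plec went from 24208 ± 3444 in T2 to 9400 ± 811 in T1 cells (normalized counts, SD, n = 3 each). Each of these 4 changes passed an adjusted p of 0.01 (limma with Benjamini-Hochberg adjustment). Of the other linkers, Pkp2, Pkp3 and Jup of the desmosome were also called higher, by log2 fold changes of 2.47, 0.62 and 0.83. Itgb4 of the hemidesmosome was called lower (-1.53). Eppk1 and Macf1 were called higher (1.78 and 0.53) and Ppl lower (-0.50), and Dst, Evpl and Tchp were not called.

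Of 16 other intermediate filament genes, 7 were compared, 2 were higher and 2 lower, shares near the 25.1% and 24.4% of all genes compared, with a median log2 fold change of 0.55. Vim, vimentin of mesenchymal cells, had 32268, 35999 and 31659 normalized counts in T1 cells and 166904, 137990 and 140278 in T2 cells. It was lower in T1 cells by a log2 fold change of -2.15 ± 0.10 (SE, adjusted p = 5.3e-08, limma with Benjamini-Hochberg adjustment). Even so, its T1 mean of 33309 ± 2350 normalized counts, not scaled to length, was near that of Krt7 (33024 ± 6133, SD, n = 3 each). Krt7 had the highest T1 mean of the keratins. Lmna, the A-type lamin of the nuclear lamina, was lower by -2.08 ± 0.11, and Nes (nestin) and Lmnb1 (a B-type lamin) were higher by 1.10 ± 0.09 and 0.64 ± 0.08 (log2 fold change ± SE, each past an adjusted p of 0.01).

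Among 15 regulators of epithelial genes, 10 were compared, 5 were higher and 4 lower in T1 cells, beside 25.1% and 24.4% of all genes compared. The median of their log2 fold changes was -0.13. Of the regulators called higher, Ovol1, Grhl1 and Ovol2 entered through T1 cells alone and could enter only by being higher there. Ovol1 and Grhl1, transcription factors of epithelial differentiation, were higher by 4.50 ± 0.25 and 3.28 ± 0.38 (log2 fold change ± SE). Fosl1, an AP-1 subunit, and Gata3, a luminal mammary factor, were lower by -2.48 ± 0.18 and -1.32 ± 0.16 (log2 fold change ± SE). Each of these changes passed an adjusted p of 0.01 (limma with Benjamini-Hochberg adjustment). Trp63, the p63 factor of basal epithelium, stayed below the filter with 2, 1 and 8 reads in T1 and 0, 1 and 0 reads in T2 libraries. Of 14 genes of the cornified envelope, the protein shell of terminally differentiated keratinocytes, 13 were in the table, 5 of them with no read. Only 4 were compared, of which 3 were higher, beside 25.1% of all genes compared, and 0 lower. Tgm1 and Sbsn entered through T1 cells alone. The median log2 fold change of the 4 was 3.09. Tgm1, the transglutaminase that cross-links the envelope, had 33.9, 22.3 and 30.3 normalized counts in T1 cells and 0 reads in T2 libraries, at least 29.5-fold higher against 3 reads over the T2 group. Sbsn, suprabasin, had 101 ± 20.2 and 4.90 ± 2.62 (SD, n = 3 each).

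**Figure D5:**
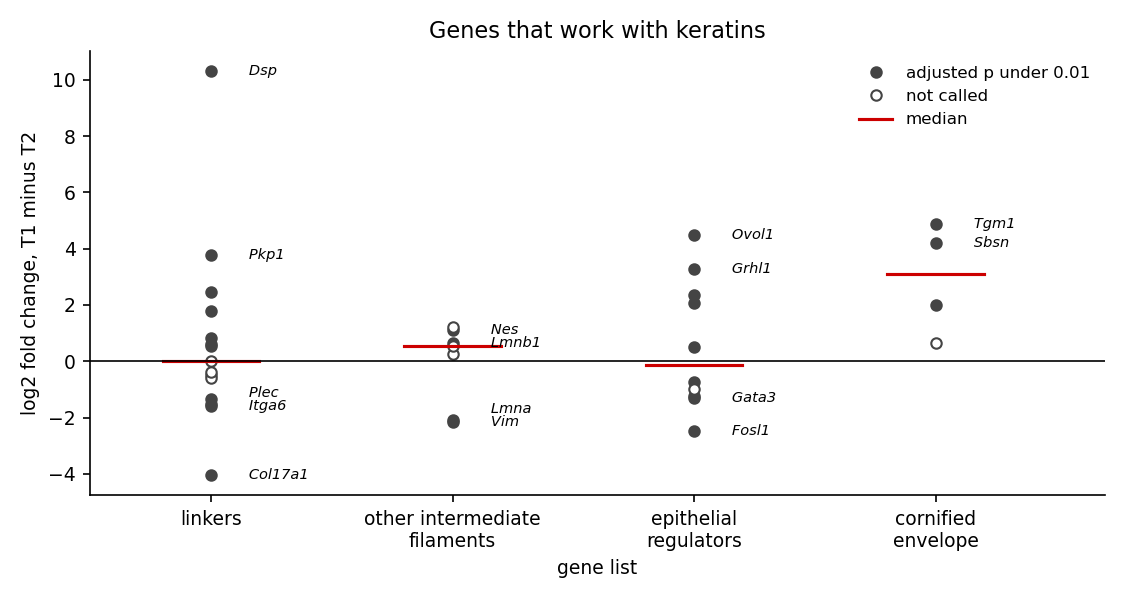
Log2 fold change, T1 minus T2, of the compared genes of 4 lists of genes that work with keratins, filled where the adjusted p was under 0.01, with the median of each list as a red line. Linkers spread from Dsp at 10.31 to Col17a1 at -4.05 around a median of 0.00, and Vim and Lmna lie near -2.

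As a check of the labelled cell type, the epithelial markers Epcam and Cdh1 summed to 16715 to 18559 normalized counts in T1 and 489 to 521 in T2 samples, so that T2 cells had Krt8 and Krt18 counts near those of T1 cells beside far lower Epcam and Cdh1. Markers of other cells had low sums. The 6 fibroblast markers summed to 20.1 to 40.0 in T1 and 0 to 0.979 in T2 samples, with Col3a1, Lum and Pdgfrb at 0 in each library. Col1a1, a fibrillar collagen chain, had 14.8, 27.9 and 24.4 normalized counts in T1 cells and 1 read in all T2 libraries. It was higher in T1 cells past both filters (log2 fold change 4.17 ± 0.51 SE, adjusted p = 4.9e-05, limma with Benjamini-Hochberg adjustment). Like Krt83 and Krt85, it reached the filter through T1 cells alone and could enter only by being higher there. It moved in the direction of the keratins called, at a level like that of Krt85, and its part in their difference was not tested. The 6 leukocyte markers summed to 0 to 6.51 and 7.17 to 14.8, with Tyrobp, Cd3e and Adgre1 at 0. The 4 endothelial markers summed to 0 to 5.29 and 0 to 4.64, with Kdr at 0. The 3 smooth muscle and myoepithelial markers, which bear on Krt14, summed to 5.86 to 10.2 in T1 and 0.928 to 4.10 in T2 samples, against 3707 to 3845 normalized counts of Krt14 in T1 cells.

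The genes whose pattern was most like that of Krt8 over the 6 samples were Psma4, a proteasome subunit, Smarca5-ps, a pseudogene, and Dnajb6, a chaperone (Pearson r of 0.992, 0.991 and 0.986 on the log2 scale, as a description). For Krt18 the value with Krt8 was 0.673. For Krt14 they were Tpm2, a tropomyosin, St3gal2, a sialyltransferase, and Gm561 (r of 0.9996, 0.9995 and 0.9994). The points share 6 libraries in 2 groups, so a gene that differs between T1 and T2 cells with little spread within each population resembles Krt14 by that alone. Tpm2 had 169, 166 and 169 normalized counts in T1 and 1.96, 5.12 and 0.928 in T2 cells, and St3gal2 1927, 1930 and 1892 against 1224, 1314 and 1144, so their sizes of change differed.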

How the data were processed

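Poly(A) RNA of 3 T1 and 3 T2 replicates was sequenced as paired reads. The authors used Trimmomatic, TopHat2 (mm10) and HTSeq, and deposited a signal, which is each gene's read count over a DESeq2 size factor. Versions, annotation and strand setting are not given in the sources used here. The kit did not mark strand. Multiplied by its library's factor, every value was a whole read within 0.01, so reads were recovered. All 6 columns were used, with 0 set aside. In the table, 27 gene names had been turned into dates and are not named.

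Genes with a mean of at least 10 were compared with limma 3.58.1 (R 4.3.3), with log2(normalized count + 1) as values, a variance trend and Benjamini-Hochberg adjustment, and called at an adjusted p under 0.01, or also an absolute log2 fold change above 2. For genes with few reads, fold changes on that scale move with the pseudocount. They are differences of mean log values, which can lie below or above the log of a ratio of means. For Krt17 the log2 fold change was 9.615 against 10.92 in DESeq2, and for Krt16 it was 5.011 against 4.595. edgeR 4.0.16 and DESeq2 1.42.0 were run on the recovered reads. Other alternatives changed the pseudocount (0.5, 5), the filter (none, 50), normalization (quantile), variance trend, replicate block, lengths and replicates. The fits were also run on simulated counts with few changed genes and the same extra spread for every gene. That setting is simpler than these data, and its outcome is not used here. Sums per sample had an exact permutation test (scipy 1.17.1). Lengths and positions came from GENCODE for GRCm38. Floors of 3 reads and 95% intervals cover counting error only. The labels name no batch. Parental 4T1GFP cells were not analysed here.

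The keratins, the other gene lists and the tests were chosen with earlier results of these data known. All 10 keratins are named, with other keratins that passed the filter, up to 2 genes per direction with the largest called fold changes of each list, Vim, Dsp, Trp63 and Plec, coding neighbours of Krt8, Krt18 and Krt20, and the 3 genes most like Krt8 and Krt14. Other names (Krt42, Krt9, Krt6b, Ovol2 and the linkers outside these picks) were added after their values were seen.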

Additional observations from a re-analysis of the deposited data

How the results depend on the processing

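All 5 keratins called stayed called under every alternative fit, at both thresholds, and Krt8 and Krt18 stayed uncalled. The count of other keratin genes past an adjusted p of 0.01 was 3 and fell to 1 with a mean of at least 50, where Krt83 and Krt85 were not tested. It was 2 to 3 when single replicates were left out and 4 with no filter. Fold changes of genes with almost no T2 read moved with the pseudocount and the tool. Log2 fold changes ranged from 8.70 to 10.45 for Krt19, 7.77 to 10.92 for Krt17, 3.60 to 7.45 for Krt83 and 2.40 to 7.46 for Krt85 (limma, edgeR and DESeq2). Counts for the partner lists were 11 to 13 linkers, 4 to 6 other intermediate filament genes, 7 to 10 regulators and 2 to 3 cornified envelope genes. The basal share differed by 5.96 to 8.37 percentage points and the type II to type I ratio by 0.203 to 0.955 on the log2 scale, higher in T1 cells in each case. With 2 samples in a group these exact tests cannot go below p = 0.2. Depth limits Krt19, Krt14, Krt16 and Krt17 in T2 cells, with at most 12 reads per library.

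Whether same-numbered replicates of T1 and T2 cells shared handling is not stated in the sources used here. Deviations from the group mean correlated at 0.0575, 0.172 and 0.104 for same-numbered replicates, and at -0.152 to 0.0719 for differently numbered ones. Each T1 replicate correlated best with the T2 replicate of its number, and T2 replicates 2 and 3 did so in turn. T2 replicate 1 correlated best with T1 replicate 3 (0.0719 against 0.0575 with T1 replicate 1). These few values cannot settle whether the numbers mark pairs. The fit with the replicate block called 5780 genes against 5701, and 5 of the 10 keratins in both.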
